A study of Mus musculus with 23 samples.

Results

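The genes described are 8 long noncoding RNAs (lncRNAs), Gm32006, Gm32872, H19, Neat1, Malat1, Meg3, Gas5, and Snhg1, taken by name from the 48897 genes of the expression table, where 11591 genes carry the type lncRNA and 2786 the type lincRNA. All 8 names were found and all 8 are typed lncRNA. The 8 were chosen with measured values in view, but by which values is not stated. Gm32006 and Gm32872 are taken here as chosen by their levels in pre-metastatic and control liver, and the other 6 are widely studied lncRNAs. The difference between pre-metastatic and control liver is therefore given for these 8 genes as a description, with no test.

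The libraries hold poly(A) RNA of male BALB/c mice injected at 4 to 6 weeks of age. In 9 mice, CT26 cells, a colon carcinoma line derived from the same mouse strain, were placed in the wall of the cecum, and 3 weeks later each mouse gave a liver, called pre-metastatic, and its primary tumor. In 5 sham-operated mice (control liver) serum-free medium was injected in place of cells. The control mice are numbered C1, C4, C5, C6, and C7 and the tumor-bearing mice M1, M2, M4, M5, M6, M7, M8, M10, and M12. The tumors all come from 1 cell line and hold host cells as well as carcinoma cells.

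lncRNAs are transcripts that are not translated into protein. Neat1 is the scaffold of nuclear paraspeckles and Malat1 is an abundant RNA of nuclear speckles, while H19 and Meg3 are expressed from the maternal allele of imprinted loci that are active in the fetus and largely silent in adult liver. Gas5 and Snhg1 carry small nucleolar RNAs (snoRNAs), guides of ribosomal RNA modification, in their introns, and their spliced RNAs are kept low by nonsense-mediated decay. Gm32006 and Gm32872 are predicted genes to which the table gives no function.

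Total counts per library ran from 44587556 to 79773163. The 10 most counted genes took 15.0% to 27.9% of the counts of a liver and 4.78% to 5.74% of those of a tumor, so that the choice of scaling moves every comparison of tumor and liver. With the trimmed mean of M values (TMM), the scaling used for the tests, the median log2 difference of all genes was 0.13 between tumor and pre-metastatic liver and 0.18 between tumor and control liver, against 1.30 and 1.26 with scaling by library totals alone. Of the genes called between tumor and pre-metastatic liver, 52.5% were higher in the tumor with TMM and 76.0% with library totals, and against control liver 53.7% and 75.7%. RPKM, the count per gene length and library total, is scaled by library totals.

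Hepatocyte markers (Alb, Ttr, Apoa1, Tat, and Cps1) summed to 27512 to 62289 RPKM in the 14 livers and to 5.38 to 245 RPKM in the tumors. Leukocyte markers summed to 26.6 to 48.4 RPKM in control liver, 54.5 to 292 in pre-metastatic liver, and 1070 to 2760 in the tumor, and fibroblast markers to 67.2 to 102, 37.8 to 127, and 494 to 792 RPKM. Endothelial markers summed to 8.33 to 20.7, 8.15 to 29.1, and 12.6 to 27.0 RPKM, epithelial carcinoma markers to 262 to 299, 192 to 321, and 40.1 to 118, and erythroid markers to 179 to 401, 474 to 1025, and 35.2 to 272. Of the carcinoma markers, Krt8, Krt18, Cdh1, and Epcam fell in the tumor against pre-metastatic liver, with log2 differences of -6.99, -5.69, -4.09, and -3.01, and Krt20 rose, to 27.8 to 113 RPKM from at most 1.31 RPKM in a liver. Krt20 also rose in pre-metastatic against control liver, by 3.67 (SE 1.24, edgeR adjusted p = 0.0350), where it had 1 to 144 and 0 to 5 counts. In such bulk samples, fewer cells of a type and less RNA per cell cannot be told apart, and the part of cell makeup in the differences below was not tested.

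A set of libraries stood apart. Transcripts of 10 skeletal muscle genes, a list drawn up after the values were seen, summed to 15029 counts in the liver of C1, 3068 in the liver of M4, 57038 in the tumor of M4, and 14910 in the tumor of M7, against 22 to 248 in the other livers and 330 to 550 in the other tumors. By transcripts of the circadian clock (Dbp, Per3, and Ciart against Arntl, Clock, and Npas2), 9 livers fell in an early phase and 5 in a late phase. The late livers were those of C7, M1, M2, M10, and M12, so that 1 of 5 control livers and 4 of 9 pre-metastatic livers were late. On the index of these transcripts C7 stood at 0.98, between M7, the highest early liver (-0.10), and M12, the lowest other late liver (2.05). The phase of C7 is therefore uncertain.

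Gm32006 lies on chr8:119415104-119429070 (mm10, minus strand) and has 6102 nt of exons. It overlaps the 3′ side of Mlycd, the gene of malonyl-CoA decarboxylase, on the opposite strand over 6837 nt, 48.95% of the Gm32006 interval as the table gives both genes. In the GENCODE vM21 annotation the Mlycd exons end 4002 nt short of Gm32006. On the other side, 5065 nt away and also on the opposite strand, lies Osgin1, an oxidative stress induced growth inhibitor, and the next lncRNA, LOC108167555, is 7555 nt from its 3′ end. Gm32872 lies on chr10:68530194-68533936 (plus strand), has a length of 162 nt in the table, and lies wholly within 1700040L02Rik (also named Cabcoco1), which is transcribed from the other strand. Its nearest neighbors beyond that gene are Gm40683 at 90405 nt and Tmem26 at 189810 nt. How the counting treated strand is not given in the sources used here, and reads of such antisense pairs cannot be told apart where their exons overlap.

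The transcript of Gm32872 in GENCODE vM21 has 205 bases in 2 exons. It is shown whole because the overlap bears on its counts, and the capitals mark the 54 bases (bases 116 to 169, 26.3% of the transcript) that lie over an antisense exon of Cabcoco1, at chr10:68533847-68533900. The remaining bases lie over no Cabcoco1 exon of that annotation. Only 105 of the 205 bases lie inside the interval that the table gives for Gm32872, and the 54 bases are among them. The overlap is thus a larger part of the counted gene than of the whole transcript.
Gm32872, GRCm38, chr10:68530094-68533936, plus strand: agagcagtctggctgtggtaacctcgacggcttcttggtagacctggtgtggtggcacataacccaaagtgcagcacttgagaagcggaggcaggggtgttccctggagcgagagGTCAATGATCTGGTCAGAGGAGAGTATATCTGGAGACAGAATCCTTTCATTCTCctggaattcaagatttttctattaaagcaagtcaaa

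The start of Gm32006 is shown next, and after it the starts of Gas5 and Snhg1, which are shown for the pyrimidine runs at their first bases. Each window, from RefSeq on GRCm38.p6, runs from 250 bases before to 50 bases after a transcript start, and the capitals mark the first 10 transcribed bases. The Gm32006 window is that of the annotated start closest to the start in the table, 492 nt from it.
Gm32006, chr8:119429513-119429812, minus strand: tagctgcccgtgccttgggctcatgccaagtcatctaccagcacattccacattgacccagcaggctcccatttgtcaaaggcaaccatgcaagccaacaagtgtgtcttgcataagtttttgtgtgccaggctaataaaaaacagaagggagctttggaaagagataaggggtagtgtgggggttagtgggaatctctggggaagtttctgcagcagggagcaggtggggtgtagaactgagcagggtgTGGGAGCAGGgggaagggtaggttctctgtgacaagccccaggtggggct
Gas5, chr1:161034916-161035215, plus strand: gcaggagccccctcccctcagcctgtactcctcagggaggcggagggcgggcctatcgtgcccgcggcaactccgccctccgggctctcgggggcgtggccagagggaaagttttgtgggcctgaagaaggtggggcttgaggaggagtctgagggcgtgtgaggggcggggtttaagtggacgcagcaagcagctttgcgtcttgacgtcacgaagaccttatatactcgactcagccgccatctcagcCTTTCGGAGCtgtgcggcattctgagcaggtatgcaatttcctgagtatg
Snhg1, chr19:8723237-8723536, plus strand: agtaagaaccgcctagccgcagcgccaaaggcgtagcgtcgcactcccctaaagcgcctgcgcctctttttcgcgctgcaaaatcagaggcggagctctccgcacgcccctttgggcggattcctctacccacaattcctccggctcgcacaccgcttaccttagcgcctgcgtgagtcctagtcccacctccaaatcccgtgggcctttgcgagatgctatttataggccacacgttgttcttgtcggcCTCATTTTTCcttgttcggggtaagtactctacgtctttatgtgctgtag

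The windows were searched on both strands for 7 short motifs. The antioxidant response element, TGACNNNGC, occurred in the Gm32006 window at bases 54 to 62 on the sense strand and at bases 25 to 33 on the antisense strand, and in 12.4% of all 32851 windows. The cAMP response element, TGACGTCA, occurred in the Gas5 window at bases 205 to 212 and in 1.79% of all windows, and the TATA box, TATAAA, on the antisense strand of the Snhg1 window at bases 222 to 227 and in 13.6% of all windows. The clock E-box CACGTG (7.15% of windows), the CCAAT box (37.4%), the STAT element TTCNNNGAA (8.30%), and the D-box TTATGTAA (0.938%) were not in the 3 windows shown. The capitals of Snhg1 hold 9 pyrimidines of 10 and those of Gas5 hold 6. A start with a C followed by at least 4 pyrimidines, the letters of the terminal oligopyrimidine tract of translation genes, was found in 2.51% of all windows and in 3 of 16 snoRNA host genes with a window (Gas5, Snhg7, and Snhg8).

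The levels of the 8 RNAs differed widely within each tissue. In control liver the median RPKM fell from Malat1 (41.0) through Snhg1 (14.2), Neat1 (10.5), and Gas5 (7.97) to Meg3 (0.0989), H19 (0.0537), Gm32006 (0.0298), and Gm32872 (0). Malat1 stood above the range of Snhg1, whereas the ranges of Snhg1, Neat1, and Gas5 overlapped, as did those of the 4 low RNAs. In pre-metastatic liver the order was Malat1 (30.3), Snhg1 (10.6), Gas5 (7.82), Gm32872 (5.54), Neat1 (5.25), Gm32006 (1.31), H19 (0.502), and Meg3 (0.160), and the ranges of every neighboring pair in it overlapped. In the tumor it was Snhg1 (135), Gas5 (71.4), Malat1 (59.5), Neat1 (7.06), H19 (1.34), Meg3 (0.204), Gm32006 (0.0523), and Gm32872 (0). Gas5 and Malat1 overlapped there, as did H19 with Neat1 and with Meg3.

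**Figure D1:**
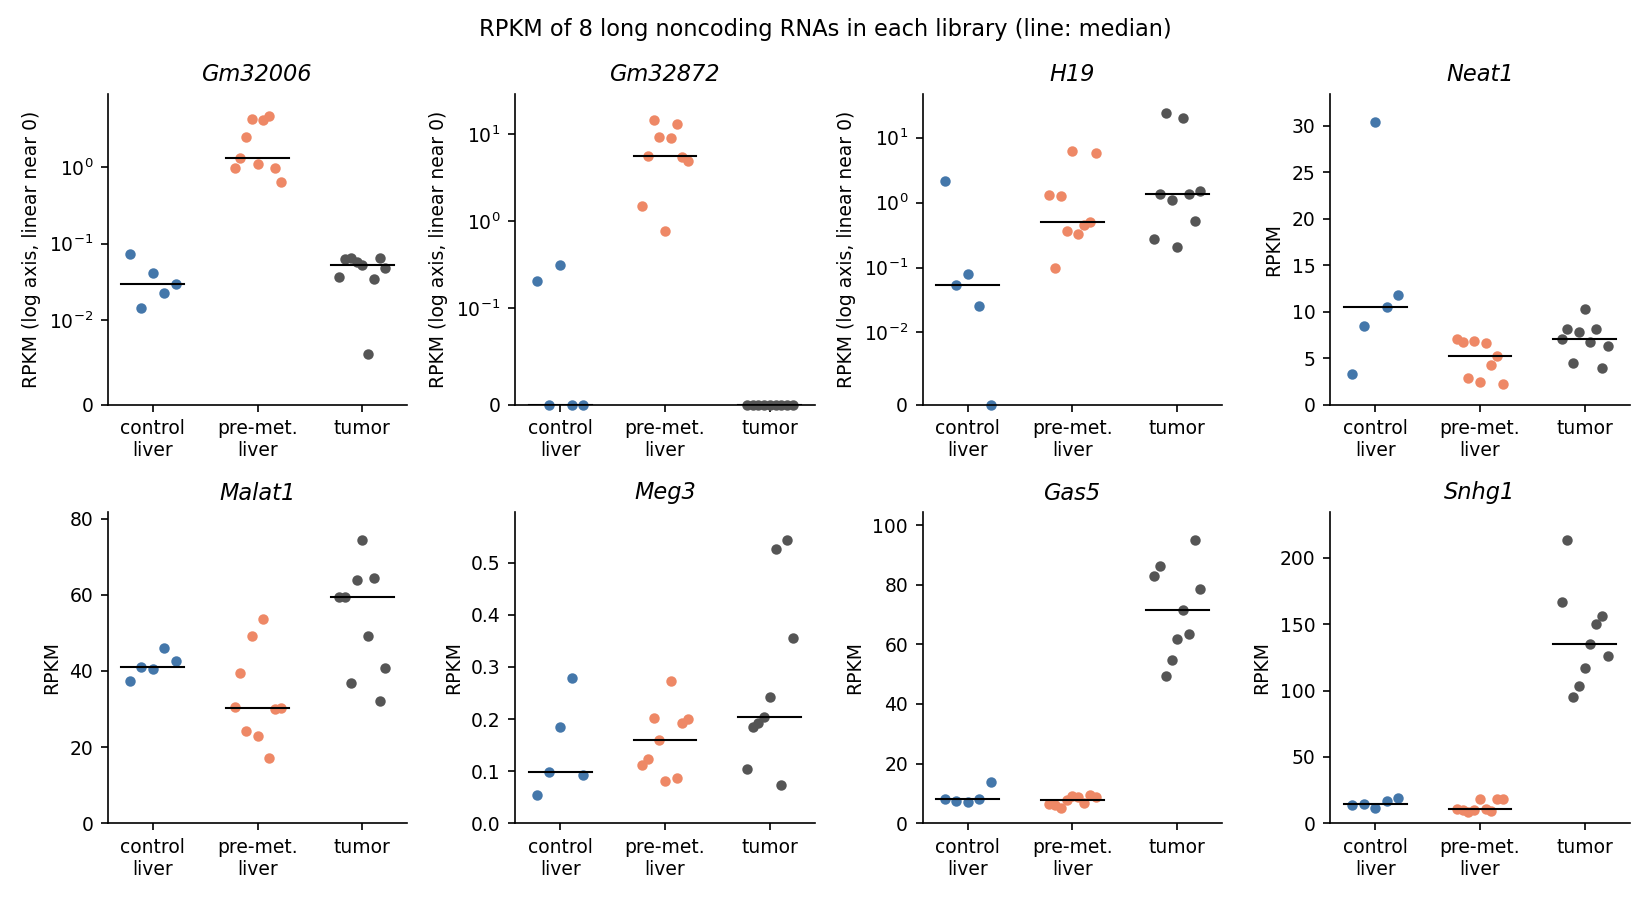
RPKM of each of the 8 lncRNAs (1 panel each) in 5 control livers, 9 pre-metastatic livers, and 9 primary tumors, with 1 point per library and a line at the median; the axes of Gm32006, Gm32872, and H19 are logarithmic and linear near 0. Gm32006 and Gm32872 are higher in all 9 pre-metastatic livers than in any other library, and Gas5 and Snhg1 in all 9 tumors than in any liver.

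Gm32006 had few counts in control liver and had at least 252 counts in every pre-metastatic liver. In control liver it was at 0.0733 RPKM in C1, 0.0144 in C4, 0.0410 in C5, 0.0225 in C6, and 0.0298 in C7, that is at 5 to 27 counts. In pre-metastatic liver it ranged from 0.642 to 4.64 RPKM with a median of 1.31, at 252 to 2001 counts. Every pre-metastatic liver was above every control liver. The log2 difference was 5.99 (SE 0.67, 9 against 5 livers), the 13th largest rise of 16987 genes tested, between Adarb2 at 6.12 and Prtn3 at 5.99. The summed counts, 7231 in 9 livers and 64 in 5, give a 62.5-fold ratio per total count with a 95% interval of 48.9 to 81.2 that covers counting error only. Without each library in turn the log2 difference was 5.78 to 6.46, and with the clock phase as a term it was 6.20.

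Gm32872 followed the same order of groups at lower counts. In control liver it had 2 counts in C1 (0.204 RPKM), 3 counts in C5 (0.309 RPKM), and 0 in C4, C6, and C7. In pre-metastatic liver it ranged from 0.767 RPKM (7 counts, M6) to 14.6 RPKM (131 counts, M4) with a median of 5.54. The groups did not overlap. The log2 difference was 5.93 (SE 0.89), rank 16 among the rises, between Cxcl14 at 5.96 and Apol11b at 5.85. The ratio of summed counts, 590 against 5, was 65.2-fold, with a counting interval of 27.8 to 202. Without each library in turn the log2 difference was 5.64 to 6.74, the latter without C5, which holds 3 of the 5 control counts. With the clock phase as a term the log2 difference was 6.19. Of all genes tested, 17.7% were called higher in pre-metastatic liver and 13.3% lower at an adjusted p under 0.05 (edgeR). Gm32006 and Gm32872 are taken as chosen by those levels, so the lack of overlap of their groups is no separate result. The share of all genes whose groups do not overlap was not taken, here or in the comparisons below, so that no lack of overlap named is set against it.

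The pre-metastatic livers spread widely for both RNAs. The livers of M4, M5, M7, and M8 held 2.52, 4.32, 4.11, and 4.64 RPKM of Gm32006, and the other 5 livers 0.642 to 1.31. The same 4 livers were highest for Gm32872, at 14.6, 9.34, 8.98, and 13.2 RPKM against 0.767 to 5.54. All 4 were in the early clock phase, whose 5th pre-metastatic liver, M6, held 1.09 RPKM of Gm32006 and the lowest level of Gm32872. The early control livers held 0.0144 to 0.0733 RPKM of Gm32006, and the log2 difference within the early phase was 6.45. As every pre-metastatic liver was above every control liver, the lack of overlap within that phase is no separate result. As the same 4 pre-metastatic livers were highest for both RNAs, no correlation between the RNAs was tested across the pre-metastatic livers.

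**Figure D2:**
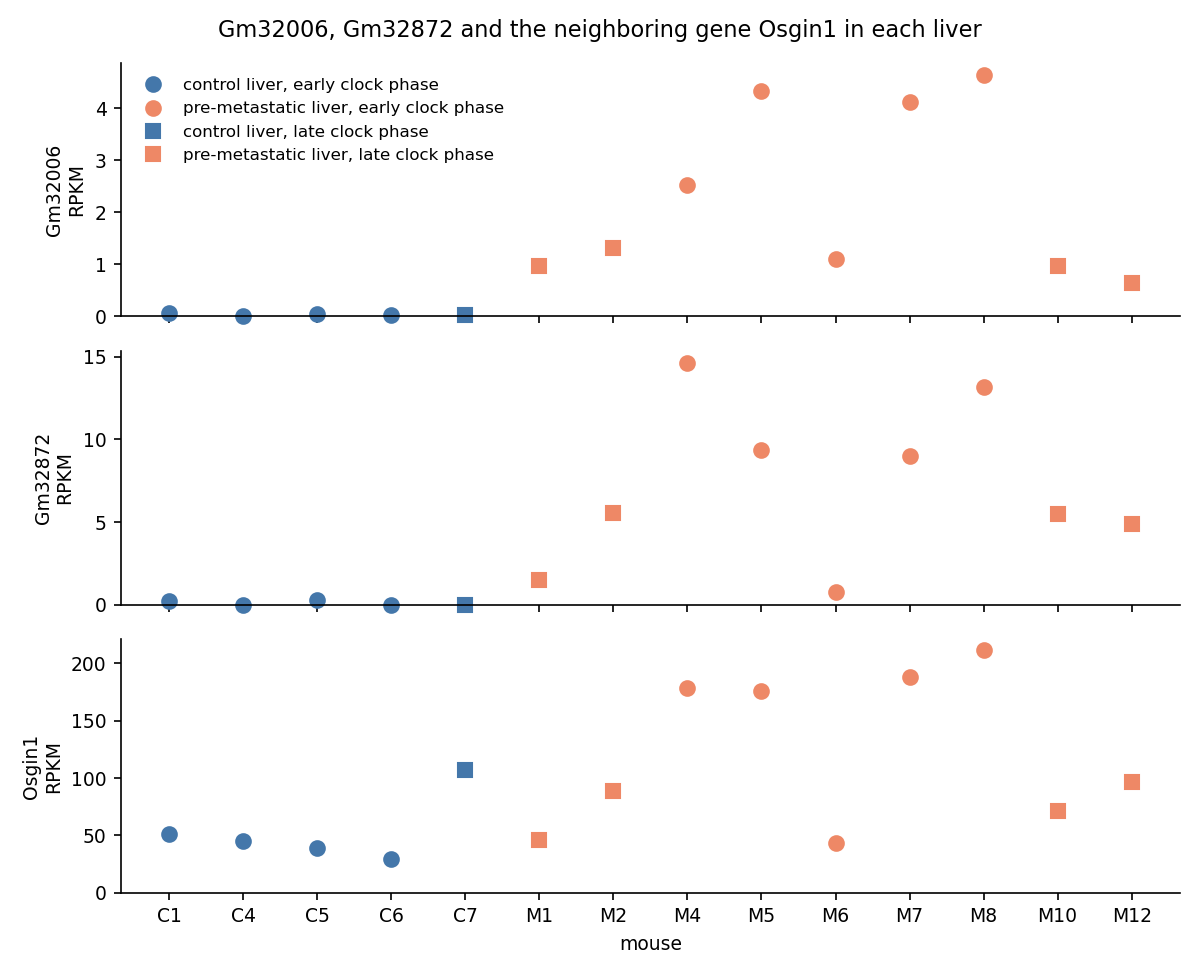
RPKM of Gm32006, Gm32872, and the neighboring gene Osgin1 (3 panels) in each liver, with the mice along the horizontal axis, circles for the early and squares for the late clock phase, and colors for the group. The livers of M4, M5, M7, and M8 are the highest in all 3 panels, and control liver C7, at 107 RPKM of Osgin1, lies above the other 5 pre-metastatic livers for that gene alone.

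The neighbors of the 2 predicted genes behaved differently from each other. Osgin1 was at 29.8 to 107 RPKM in control liver and at 43.8 to 212 RPKM in pre-metastatic liver, with the 4 livers named above at 176 to 212 RPKM and the others at 43.8 to 96.4. It rose by 1.25 on the log2 scale (SE 0.41, edgeR adjusted p = 0.0301), and the groups overlapped. Mlycd, which overlaps Gm32006, went the other way, with a log2 difference of -0.37 (SE 0.08, edgeR adjusted p = 0.00286) and 18.6 to 29.4 RPKM in pre-metastatic against 29.2 to 34.9 RPKM in control liver. 1700040L02Rik, in which Gm32872 lies, had a log2 difference of -0.27 (edgeR adjusted p = 0.423). Tmem26, a membrane protein gene, rose by 1.67 on the log2 scale (SE 0.43, edgeR adjusted p = 0.00804). Gm40683 and LOC108167555 were too low to be tested.

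In the tumor both RNAs had few counts or none. Gm32006 ranged from 0.00600 RPKM (2 counts, M7) to 0.0647 RPKM (28 counts, M10) with a median of 0.0523. Every tumor was below every pre-metastatic liver, and hence below the liver of its own mouse in 9 of 9 mice. Between tumor and pre-metastatic liver the log2 difference was -6.72 (SE 0.48), given without a p because it rests on the pre-metastatic livers taken as the basis of the choice. Against control liver, which the tumors overlapped, it was -0.72 (SE 0.45), and with scaling by library totals 0.38, likewise without a p. The ratio of summed counts per total count, control liver to tumor, was 0.770 with a counting interval of 0.566 to 1.04.

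Gm32872 had 0 counts in all 9 tumors. With a floor of 3 counts over the group, pre-metastatic liver was at least 199-fold higher than the tumor per total count. Control liver, at 5 counts in 2 of 5 livers, was 3.05-fold above that floor. That figure leaves out the counting error of the 5 counts and is no lower bound. The gene entered the test of tumor against pre-metastatic liver only through the pre-metastatic livers, and it was not tested against control liver. The genes beside both RNAs were also lower in the tumor. Osgin1 fell by 6.80 on the log2 scale against pre-metastatic liver (edgeR adjusted p = 3.85e-13), Mlycd fell by 3.90 (edgeR adjusted p = 3.36e-18), and 1700040L02Rik fell by 6.89 (edgeR adjusted p = 1.21e-10). Hepatocyte markers in the tumors were at 0.00949% to 0.440% of their level in the liver of the same mouse, and their part in these differences was not tested.

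Gm32006 and Gm32872 are left out of the counts of calls, since their levels in both kinds of liver are taken as the basis of their choice. Of the other 6 lncRNAs, 2 were called higher (Gas5 and Snhg1) and 2 lower (Neat1 and Malat1) between tumor and pre-metastatic liver. Of all 19749 genes tested, 43.8% were called higher and 39.5% lower in that comparison. With library totals the split of the 6 was 4 higher and 0 lower, and with upper-quartile scaling 2 higher and 0 lower. Between tumor and control liver the same 2 were called higher and the same 2 lower, where 44.2% and 38.1% of 19320 genes were called, and with library totals the split was 3 and 1. Nothing particular to the 6 is read from these counts. The tumors are common to both comparisons.

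**Figure D3:**
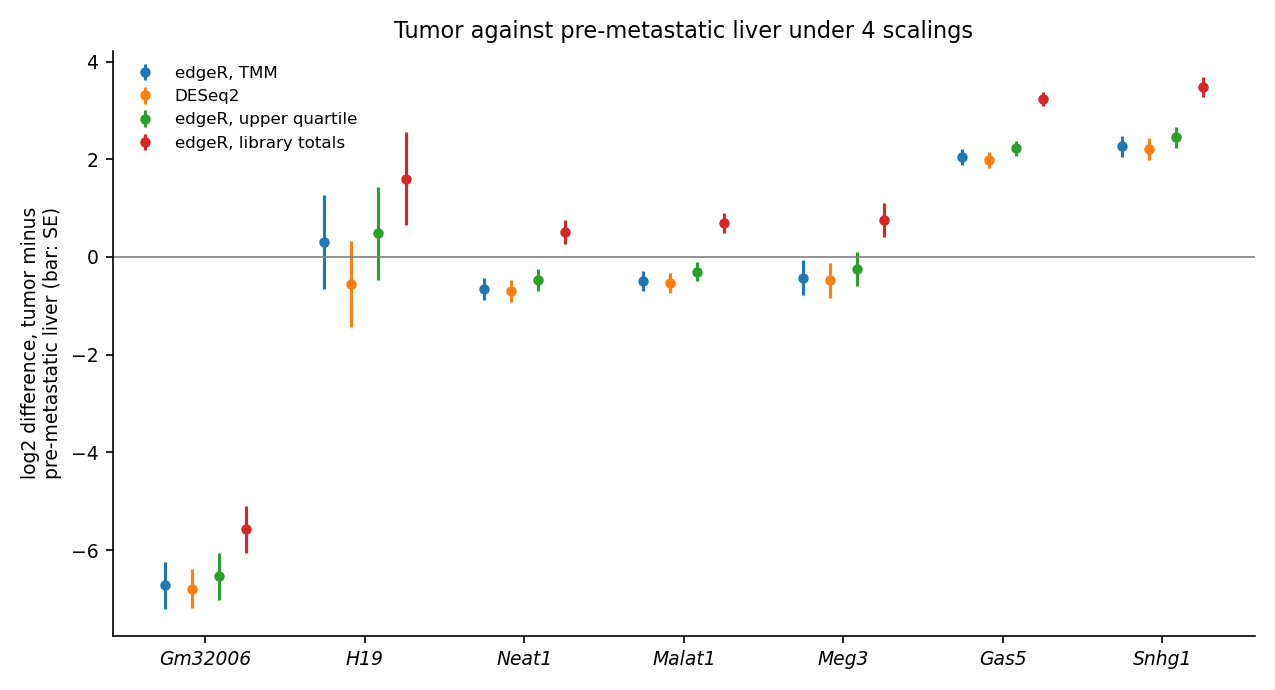
Log2 difference between 9 primary tumors and 9 pre-metastatic livers (bars are SE) for 7 of the lncRNAs under 4 scalings; Gm32872, at 0 counts in every tumor, is left out. Gas5 and Snhg1 lie above 0 and Gm32006 below 0 under all 4 scalings, whereas Neat1, Malat1, and Meg3 lie below 0 under 3 of them and above 0 with library totals.

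H19, an imprinted fetal RNA on chr7:142575530-142578146 (minus strand), varied more within groups than between them. In control liver it was at 2.16 RPKM in C1 (299 counts) and at 0.0537 in C4, 0.0801 in C5, 0.0257 in C6, and 0 in C7. In pre-metastatic liver it ranged from 0.0980 to 6.30 RPKM with a median of 0.502, and the livers of M6 (6.30) and M12 (5.84) stood above the rest, which reached 1.31. In the tumor it was at 23.8 RPKM in M4 and 20.1 RPKM in M7, and at 0.205 to 1.49 RPKM in the other 7. The groups overlapped in every comparison. The log2 difference between pre-metastatic and control liver was 2.07 (SE 1.26) and 5.68 without C1. Without C1 the 2 kinds of liver did not overlap, but by a margin of few counts. The lowest pre-metastatic liver, M2, had 0.0980 RPKM (10 counts) and the highest control liver left, C5, 0.0801 RPKM (11 counts).

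The tumors and pre-metastatic livers differed in H19 by 0.30 on the log2 scale (SE 0.96, edgeR adjusted p = 0.775) and tumor and control liver by 2.40 (SE 1.44, edgeR adjusted p = 0.134). The 4 libraries with skeletal muscle transcripts included the highest control liver and both high tumors. The remaining library, the liver of M4, had 162 counts of H19 at 3068 muscle counts. The liver of M1 had 160 counts of H19 at 38 muscle counts. Leaving out mice C1, M4, and M7, an alternative chosen after the values were seen, turned the first of these differences to -2.55 (edgeR adjusted p = 0.0117) and made the second 3.37 (edgeR adjusted p = 0.00155). Without C1 alone the second was 6.0 (edgeR adjusted p = 0.00593). The livers of M6 and M12 had 812 and 860 counts of H19 at 24 and 248 muscle counts, the latter the highest outside the livers of C1 and M4. In the liver of M6, Krt20 had 144 counts, against at most 22 in any other liver. The tumor of M6 had 22 counts of H19. The part of muscle or tumor cells in the H19 values was not tested.

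**Figure D4:**
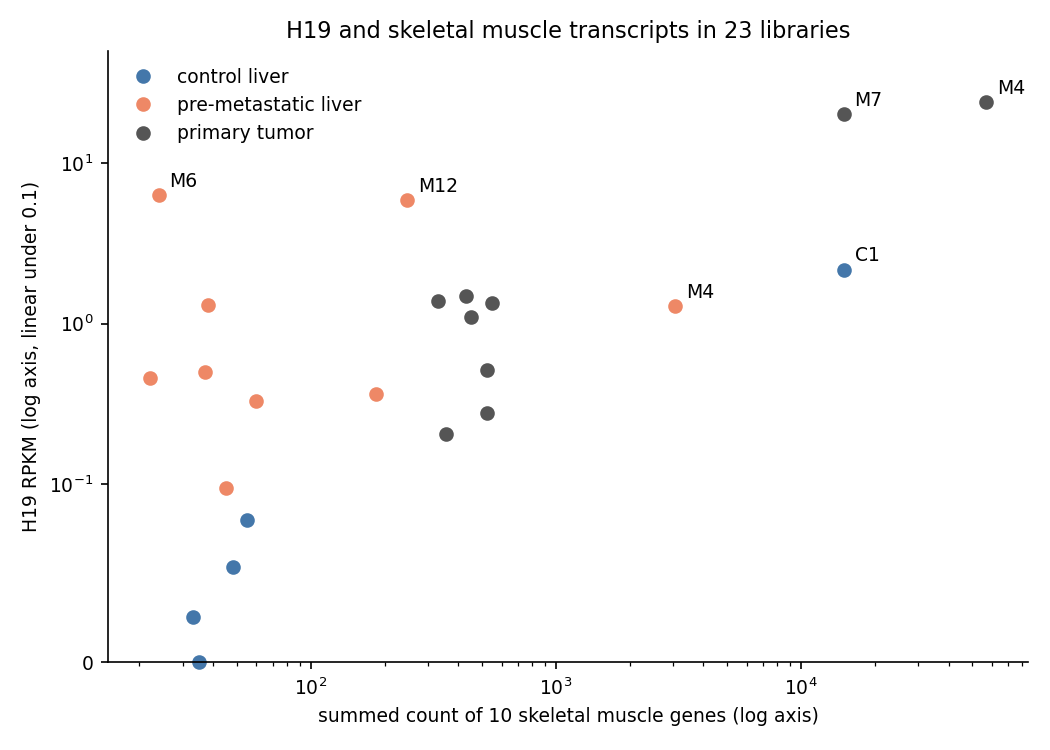
H19 RPKM (vertical, logarithmic and linear under 0.1) against the summed count of 10 skeletal muscle genes (horizontal, logarithmic) in 23 libraries colored by group, with the mouse number at libraries that stand apart. The tumors of M4 and M7 and the control liver C1 are high on both axes, and the livers of M6 and M12 are high in H19, at 24 and 248 muscle counts. The liver of M4 is high in muscle counts, with H19 near that of the liver of M1.

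The neighbors of H19 were read in the same libraries. Igf2, the paternally expressed growth factor gene 72622 nt away, had 114 and 112 counts in the tumors of M4 and M7 and 0 to 8 counts in the other 7 tumors. It differed between no 2 groups at the threshold, with log2 differences of -0.65 (edgeR adjusted p = 0.238) for pre-metastatic against control liver, -0.20 (edgeR adjusted p = 0.845) for tumor against pre-metastatic liver, and -0.83 (edgeR adjusted p = 0.496) for tumor against control liver. Nctc1, an lncRNA 16932 nt away that is transcribed in muscle, had 14 counts in the liver of C1, 21 in the tumor of M4, and 3 in all other libraries together. Mir675, which lies within H19 on the same strand, had 0 counts in all 23 libraries. In poly(A) libraries, and with H19 over the same bases, these counts need not reflect the level of the microRNA. Gm33148, 13513 nt away, was too low to be tested.

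Meg3, the maternally expressed RNA of the Dlk1-Dio3 locus on chr12:109540996-109571729 (plus strand), was low in all tissues. It was at 0.0550 RPKM in C1, 0.0989 in C4, 0.185 in C5, 0.280 in C6, and 0.0927 in C7. In pre-metastatic liver it ranged from 0.0809 to 0.274 RPKM (median 0.160) and in the tumor from 0.0737 to 0.543 RPKM (median 0.204). All 3 groups overlapped. The log2 difference was 0.27 (SE 0.37) between pre-metastatic and control liver. It was -0.43 (SE 0.36, edgeR adjusted p = 0.272) between tumor and pre-metastatic liver, and -0.58 (edgeR adjusted p = 0.0243) with the mouse as a block. With scaling by library totals the sign turned, to 0.76. Between tumor and control liver it was -0.15 (SE 0.47, edgeR adjusted p = 0.777), and 0.92 with library totals.

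The RNAs that follow Meg3 on the same strand belong to the same imprinted locus. Rian, a host of box C/D snoRNAs, ranged from 0.0930 to 0.475 RPKM in control liver, 0.124 to 0.862 in pre-metastatic liver, and 0.502 to 1.72 in the tumor. Rian rose in the tumor against control liver by 1.39 on the log2 scale (SE 0.37, edgeR adjusted p = 0.00267), and differed by 0.36 (edgeR adjusted p = 0.304) between tumor and pre-metastatic liver. In RPKM, which is scaled by library totals and not by TMM, every tumor was above every control liver, at the closest 0.502 against 0.475. Mirg, a microRNA host, had 0 to 14 counts in control liver and 3 to 38 in pre-metastatic liver, a log2 difference of 2.01 (SE 0.81) that missed the threshold (edgeR adjusted p = 0.0705). It fell in the tumor against pre-metastatic liver by 0.89 on the log2 scale (edgeR adjusted p = 0.0424), a call lost with the mouse as a block (-0.74, edgeR adjusted p = 0.125), with upper-quartile scaling, and without any of 6 mice (M1, M2, M4, M6, M7, and M12), and with library totals its sign turned (0.33). Dlk1, the protein-coding neighbor at 77660 nt, had at most 10 counts in a library. The lincRNA ENSMUSG00000097698.1 lies antisense over 3096 nt of Meg3, and Gm34081 starts 110 nt before it on the opposite strand.

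Neat1 (chr19:5824708-5845480) and Malat1 (chr19:5795690-5802671) lie 22037 nt apart on the minus strand. Neat1 was at 3.29 RPKM in C1, 8.48 in C4, 30.4 in C5, 10.5 in C6, and 11.8 in C7. In pre-metastatic liver it ranged from 2.19 to 7.03 RPKM with a median of 5.25. C1 lay within that range and the other 4 control livers above it. The log2 difference was -1.31 (SE 0.38), and -0.71 without C5, the highest control liver.

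In the tumor Neat1 ranged from 3.94 to 10.3 RPKM (median 7.06). It fell against control liver by 1.95 on the log2 scale (SE 0.35, edgeR adjusted p = 8.42e-05), and no scaling of the counts turned the sign, while limma on log2(RPKM + 1) gave -0.54 (limma adjusted p = 0.151). Against pre-metastatic liver it fell by 0.66 (SE 0.22, edgeR adjusted p = 0.0103), while with library totals the log2 difference was 0.51 (edgeR adjusted p = 0.0533). In RPKM, Neat1 was higher in the tumor than in the liver of the same mouse in 8 of 9 mice. Frmd8os is a transcript 177 nt from the start of Neat1 on the other strand. It fell by 3.15 in the tumor against pre-metastatic liver (edgeR adjusted p = 1.76e-07). Between pre-metastatic and control liver its log2 difference of -0.74 missed the threshold (edgeR adjusted p = 0.0950). The livers did not overlap, with at most 0.215 RPKM in pre-metastatic and at least 0.231 in control liver. The share of all genes split in this way was not taken.

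Malat1, the most abundant of the 8 in liver, varied little in control liver, at 37.5 RPKM in C1, 41.0 in C4, 40.6 in C5, 46.1 in C6, and 42.6 in C7. It ranged from 17.03 to 53.8 RPKM in pre-metastatic liver (median 30.3) and from 32.1 to 74.3 RPKM in the tumor (median 59.5). The pre-metastatic livers spread to both sides of the control livers, with a log2 difference of -0.26 (SE 0.21). Against control liver, Malat1 fell in the tumor by 0.72 on the log2 scale (SE 0.17, edgeR adjusted p = 0.00118), and with library totals the log2 difference was 0.36 (edgeR adjusted p = 0.0694). Against pre-metastatic liver it fell by 0.49 (SE 0.20, edgeR adjusted p = 0.0307). That call was lost with the mouse as a block (log2 difference -0.46, edgeR adjusted p = 0.0540) and without any of M2 (-0.48), M5 (-0.47), M7 (-0.34), M10 (-0.44), or M12 (-0.44), and with library totals the log2 difference was 0.69. 2 unnamed transcripts, ENSMUSG00000092267.1 and ENSMUSG00000102349.1, lie antisense over 988 and 453 nt of Malat1.

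Neat1 and Malat1 varied together among the tumors. Over the 9 tumors, on log2(RPKM + 1), Pearson's r was 0.957 (exact permutation p = 1.65e-05, adjusted over 8 relations 0.000132) and Spearman's rho 0.95 (exact permutation p = 0.000353, adjusted 0.00282). Without the tumors of M10 and M4, the 2 farthest from the median of Neat1, r was 0.886 (exact permutation p = 0.00952). Over the 9 pre-metastatic livers r was 0.614 (exact permutation p = 0.0840, adjusted 0.112) and rho 0.633 (exact permutation p = 0.0760, adjusted 0.152). Both genes of a pair share the total of their library. The pairs were chosen after values were seen, and the adjustment over 8 relations does not cover that choice. The difference between the r of the tumors and of the livers was not tested.

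Gas5 (chr1:161035166-161038537, plus strand), a snoRNA host named for its rise in growth-arrested cells, overlapped between both kinds of liver and was higher in every tumor than in any liver. It was at 7.97 RPKM in C1, 7.48 in C4, 7.10 in C5, 8.20 in C6, and 13.8 in C7. In pre-metastatic liver it ranged from 5.25 to 9.30 RPKM (median 7.82), with a log2 difference from control liver of -0.13 (SE 0.19). In the tumor it ranged from 49.3 to 94.9 RPKM (median 71.4). The log2 rise was 2.04 (SE 0.16, edgeR adjusted p = 4.69e-10) against pre-metastatic liver and 1.93 (SE 0.19, edgeR adjusted p = 1.01e-07) against control liver. In RPKM the tumor was 6.70 to 14.2 times the liver of the same mouse, higher in 9 of 9 mice.

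Snhg1 (chr19:8723487-8726326, plus strand), a host of several snoRNAs, gave the same picture at a higher level. It was at 13.8 RPKM in C1, 14.2 in C4, 11.1 in C5, 16.5 in C6, and 18.7 in C7. Pre-metastatic livers ranged from 8.43 to 18.5 RPKM (median 10.6), with M6, M10, and M12 at 17.9 to 18.5 and the other 6 at 8.43 to 11.04. The log2 difference from control liver was -0.12 (SE 0.24). Tumors ranged from 95.0 to 213 RPKM (median 135), all above every liver. The log2 rise was 2.27 (SE 0.22, edgeR adjusted p = 6.24e-09) against pre-metastatic liver and 2.16 (SE 0.19, edgeR adjusted p = 2.49e-08) against control liver. In RPKM the tumor was 6.54 to 21.5 times the liver of the same mouse. The rises of Gas5 and Snhg1 were 3.23 and 3.48 with library totals, and passed the threshold under every alternative run.

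Among the neighbors of these hosts, the snoRNAs and the genes beside them had smaller differences. Snord47, within Gas5, rose by 1.36 on the log2 scale in the tumor against pre-metastatic liver (SE 0.44, edgeR adjusted p = 0.00840) and Snord22, within Snhg1, rose by 1.26 (SE 0.40, edgeR adjusted p = 0.00692), both from reads of poly(A) libraries that need not be the mature snoRNAs. Slc3a2, a subunit of amino acid transporters that starts 118 nt from Snhg1 on the other strand, rose by 1.17 (SE 0.11, edgeR adjusted p = 4.20e-09). Zbtb37, which starts 302 nt from Gas5 on the other strand, rose by 0.45 (SE 0.13, edgeR adjusted p = 0.00434). Wdr74, on the far side of Snhg1, differed by -0.14 (edgeR adjusted p = 0.244). Between the livers, Wdr74 fell by 0.44 (edgeR adjusted p = 0.0187).

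Gas5 and Snhg1, a pair likewise chosen after values were seen, were set against each other in the same way. Over the 9 tumors r was 0.822 (exact permutation p = 0.00670, adjusted 0.0268) and rho 0.883 (exact permutation p = 0.00308, adjusted 0.0123), and without M10 and M4 r was 0.796 (exact permutation p = 0.0296). Over the 9 pre-metastatic livers r was 0.801 (exact permutation p = 0.0144, adjusted 0.0385) and rho 0.767 (exact permutation p = 0.0214, adjusted 0.0570). Without M2 and M4 that r was 0.753 (exact permutation p = 0.0520) over 7 livers. The rho of the livers missed the threshold after adjustment. Of the other relations, Meg3 with Rian gave r of 0.301 in the livers (exact permutation p = 0.426, adjusted 0.426) and 0.659 in the tumors (exact permutation p = 0.0537, adjusted 0.0859). Snhg1 with Slc3a2 gave -0.646 (exact permutation p = 0.0528, adjusted 0.0859) and 0.574 (exact permutation p = 0.106, adjusted 0.121). The clock phases hold 5 and 4 of the 9 mice, too few for values of their own.

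The other snoRNA host genes were set beside Gas5 and Snhg1. Of 18 listed hosts 17 were tested between tumor and pre-metastatic liver. Of these, 16 rose and 1 fell, where 43.8% and 39.5% of all genes did. Their median log2 difference was 1.64, where that of all genes was 0.13. Zfas1 went from 6.58 to 17.3 RPKM in pre-metastatic liver to 167 to 270 RPKM in the tumor, a log2 rise of 3.13 (SE 0.18, edgeR adjusted p = 3.55e-12), and Snhg4 from 0.566 to 1.43 RPKM to 10.6 to 23.7 RPKM, a rise of 3.02 (SE 0.20, edgeR adjusted p = 2.21e-11). Snhg11 fell by 6.58 (SE 0.52, edgeR adjusted p = 3.23e-10), to 0 to 4 counts per tumor. Against control liver 14 of 17 rose and 1 fell (44.2% and 38.1% of all genes), with a median of 1.41 (0.18 for all genes). Between pre-metastatic and control liver 2 of 17 fell and 0 rose (13.3% and 17.7% of all genes), with a median of -0.11 (0.01 for all genes). Dancr fell by 1.03 (SE 0.26, edgeR adjusted p = 0.00769) and Snhg3 by 0.90 (SE 0.23, edgeR adjusted p = 0.00920), and for both every pre-metastatic liver was below every control liver. How large a share of all genes shows such a split was not taken.

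**Figure D5:**
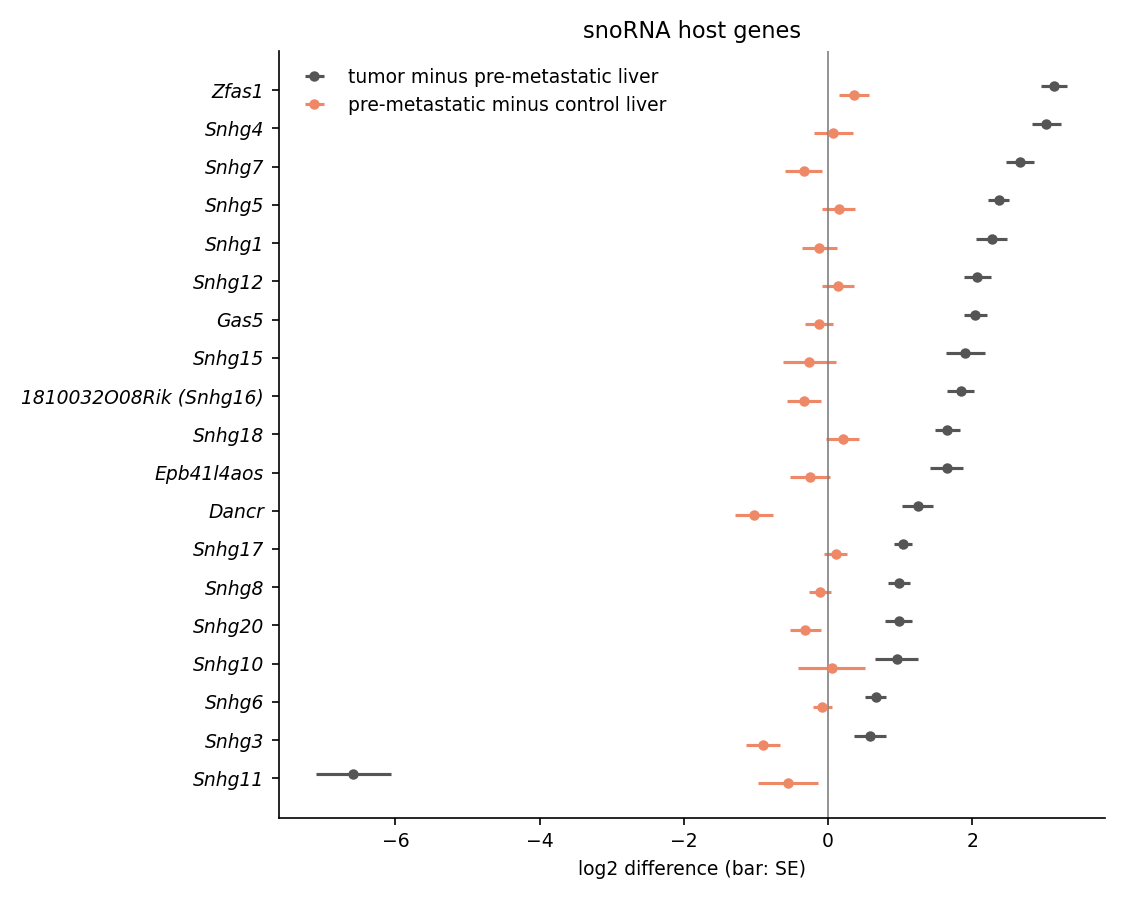
Log2 differences (horizontal, bars are SE) of the tested snoRNA host genes with Gas5 and Snhg1, for 9 tumors against 9 pre-metastatic livers and for 9 pre-metastatic against 5 control livers. Of 17 listed hosts 16 lie above 0 and pass the test in the tumor, where 43.8% of all genes were called higher. Snhg11 lies at -6.58, and in the livers the differences lie near 0 with Dancr at -1.03 and Snhg3 at -0.90.

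Listed lncRNAs of other kinds moved in both directions. Of 57 in the table, the hosts above included, 45 were tested between pre-metastatic and control liver, and 1 was called higher and 4 lower, where 17.7% and 13.3% of all genes were. Among genes of the type lncRNA, 10.6% of 1351 tested were called higher and 10.1% lower, and among protein-coding genes 19.8% and 14.1% of 13803. Between tumor and pre-metastatic liver 32 of 50 listed lncRNAs were called higher and 12 lower (median log2 difference 1.17), where 43.8% and 39.5% of all genes were. Between tumor and control liver 30 of 49 were called higher and 10 lower (median 1.33), where 44.2% and 38.1% of all genes were. With library totals these counts were 41 and 7, and 39 and 6, and 4 of the 44 and 2 of the 40 called genes turned sign.

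Of 7 other imprinted lncRNAs, 6 were tested between the livers with a median log2 difference of 0.06, and 1 fell (13.3% of all genes). This was Peg13, by 0.62 (SE 0.18, edgeR adjusted p = 0.0156), a call lost without C5 (-0.42, edgeR adjusted p = 0.0667). In the tumor 1 of 7 rose and 3 fell against pre-metastatic liver, with a median of -0.14 (43.8% and 39.5% of all genes), and 2 rose and 3 fell against control liver, with a median of 0.11 (44.2% and 38.1%). With library totals 4 rose and 2 fell in both comparisons, with medians of 1.07 and 1.16. Nespas, antisense to the Gnas locus, had 5 to 17 counts in every tumor, 1 count in 9 pre-metastatic livers together, and 0 in control liver. Snhg14, the long snoRNA host of the Prader-Willi locus, fell by 5.54 (SE 0.56, edgeR adjusted p = 1.57e-08) and Peg13 by 1.90 (SE 0.17, edgeR adjusted p = 1.80e-09) against pre-metastatic liver, and by 4.97 (edgeR adjusted p = 7.80e-07) and 2.50 (edgeR adjusted p = 1.92e-08) against control liver.

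Of 10 microRNA hosts, 8 were tested between the livers, and 1 rose and 1 fell (17.7% and 13.3% of all genes), with a median log2 difference of 0.04. Pvt1, the lncRNA beside Myc, rose by 1.03 (SE 0.29, edgeR adjusted p = 0.0145), from 9 to 19 counts in control liver to 16 to 38 counts. That call was lost with no filter (edgeR adjusted p = 0.0519), in the early clock phase alone (edgeR adjusted p = 0.0692), and with limma on log2(RPKM + 1) (limma adjusted p = 0.206). Dleu2, a microRNA host deleted in leukemia, fell by 0.68 (SE 0.15, edgeR adjusted p = 0.00349), with every pre-metastatic liver below every control liver, a split whose share among all genes was not taken. In the tumor 5 of 9 rose and 3 fell against pre-metastatic liver (median 1.09), where 43.8% and 39.5% of all genes did, and 4 rose and 3 fell against control liver (median 0.23), where 44.2% and 38.1% did. 3110039I08Rik, the table's name for Mir100hg, went from at most 0.110 RPKM in a liver to 6.499 to 13.3 RPKM in the tumor, a log2 rise of 6.08 (SE 0.27, edgeR adjusted p = 6.30e-14) against pre-metastatic liver and of 7.26 (edgeR adjusted p = 1.03e-11) against control liver. Mir155hg, the host of a microRNA of activated leukocytes, had 69 to 220 counts per tumor and 0 to 6 per liver, and Mir22hg fell by 2.58 (SE 0.19, edgeR adjusted p = 1.16e-10) and Mir99ahg by 3.20 (SE 0.53, edgeR adjusted p = 1.42e-05) against pre-metastatic liver.

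Of 22 further regulatory lncRNAs, 14 were tested between the livers, and 0 were called by edgeR or DESeq2, with a median log2 difference of -0.27. Of all genes, edgeR called 17.7% higher and 13.3% lower there. In the tumor 10 of 17 rose and 5 fell against pre-metastatic liver (median 1.98), where 43.8% and 39.5% of all genes did, and 10 of 16 rose and 3 fell against control liver (median 1.495), where 44.2% and 38.1% did. Sox2ot had 0 counts in all 14 livers and 12 to 43 in every tumor, so that no fold is given. Crnde, named for its expression in colorectal tumors, was at 2.88 to 4.31 RPKM in the tumors and at most at 0.0998 RPKM in a liver, a log2 rise of 5.80 against pre-metastatic liver (SE 0.53, edgeR adjusted p = 2.88e-09). Trp53cor1, a target of p53, had 26 to 234 counts per tumor and at most 8 in a liver. Xist, the silencer of the X chromosome, fell by 2.43 (SE 0.45, edgeR adjusted p = 5.16e-05) and its antisense RNA Tsix fell by 4.94 (SE 0.59, edgeR adjusted p = 1.64e-07) against pre-metastatic liver, from 5 to 36 and 11 to 31 counts per liver to 2 to 14 and 0 to 4 counts per tumor. Against control liver Xist fell by 3.51 (edgeR adjusted p = 3.49e-05) and its activator Jpx by 1.24 (edgeR adjusted p = 6.07e-05), and with library totals Jpx differed by -0.15 (edgeR adjusted p = 0.508).

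Last, the genes whose levels over the 14 livers were most like those of each lncRNA were listed, by Pearson's r of log2(RPKM + 1), as a description in which group differences, library totals, and clock phase all enter. For Gm32006 these were Gm527 (0.968), Gm5093 (0.954), and Atp11a, a phospholipid flippase (0.945). For Gm32872 they were Gm5093 (0.969), Clcn7, a lysosomal chloride transporter (0.969), and the pseudogene 9030619P08Rik (0.967), so that Gm5093 was on both lists. For both lncRNAs these r run across control livers and the higher and lower pre-metastatic livers described above. In the tumors Gm527, Atp11a, and Clcn7 were at 1.31 to 2.57, 9.35 to 15.4, and 9.05 to 12.05 RPKM, and Gm5093 was at 0.0302 to 0.119 RPKM.

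The closest genes to the other 6 differed from member to member. For H19 they were ENSMUSG00000108822.1 (0.906), Slc22a26, an organic anion transporter (0.844), and Gm32208 (0.842), and for Neat1 they were Spatc1l (0.911), ENSMUSG00000101210.1 (0.909), and Trim6 (0.904). For Malat1 they were Fam193b (0.904), Prss53 (0.886), and Stx16 (0.874), and for Meg3 St3gal4 (0.855), E2f8 (0.814), and BC030499 (0.760). For Gas5 they were Rassf1 (0.860), Ctps (0.852), and Tbl2 (0.849). For Snhg1 the closest was another snoRNA host, 1810032O08Rik, which is Snhg16 (0.921, and 0.945 within the 9 pre-metastatic livers), before Tram2 (0.848) and Zfp623 (0.847). Snhg16 was at 1.21 to 1.64 RPKM in control liver, 0.579 to 1.65 in pre-metastatic liver, and 7.05 to 11.2 in the tumor.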

How the data were processed

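Poly(A) RNA of 5 control livers, 9 pre-metastatic livers, and 9 primary tumors was sequenced from libraries of the NEBNext Ultra kit. Per the submitters' processing notes, HISAT, HISAT2, and HTSeq 0.6.0 were used with mm10, while the annotation and the strand setting are not given in the sources used here. The authors deposited raw counts per gene, without normalization, and RPKM, the count divided by gene length and library total, which was recomputed to within 1.75e-06 of each value. All 46 count and RPKM columns were matched to a library by mouse number and tissue. The gene positions are those of the table, and 99.8% of 36837 shared symbols overlap the RefSeq gene of that name.

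Counts were tested with edgeR 4.0.16 in R 4.3.3 (TMM, quasi-likelihood test, two-sided) on genes that reached 10 counts in 5 or more libraries of a comparison, with Benjamini-Hochberg adjustment over all genes and a threshold of 0.05. The SE is the log2 difference divided by the root of F. DESeq2 1.42.0, limma 3.58.1 on log2(RPKM + 1) and log2(RPKM + 0.1), other scalings, no filter, the clock phases, the mouse as a block, and each mouse left out were alternatives. The steps were tested on simulated data. Correlations across mice used exact permutation over all pairings. Python 3.11.15, scipy 1.17.1, pandas 2.3.3, and matplotlib 3.10.9 were used for the rest.

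The 8 lncRNAs and the lists were chosen with earlier results of these data known, and the skeletal muscle list, its alternative, and the pairs of genes correlated after values were seen. Genes named beyond the 8 are those that overlap or flank them, the imprinted partners, the 2 largest rises and falls called in each list, and the 3 genes most like each lncRNA over the livers. Some genes that this rule names are not reported here. The libraries of a group are separate mice, and p-values measure the spread between them. Liver and tumor of a mouse are paired by the labels. The deviations of a mouse's liver and tumor from their group means correlated at a mean r of 0.0831 over 14916 genes, against -0.0107 between different mice. Intervals of count ratios are exact and cover counting error only, and a group at 0 was set to a floor of 3 counts. 20 snoRNA hosts were looked up in the RefSeq windows, of which 16 were found. Library depth, 44587556 to 79773163 counts, leaves genes of a few counts with the precision of those counts.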

Additional observations from a re-analysis of the deposited data

Results flagged for a closer look

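In 2 cases of 23 groups tested at both ends, a library lay farther from the others of its group than Dixon's critical value allows, and chance gives about 1 in 20 groups. H19 in control liver was at 2.16 RPKM in C1 and at most at 0.0801 RPKM in the other 4, and C1 also held 15029 counts of skeletal muscle genes against 33 to 55 in the others. Gas5 in control liver was at 13.8 RPKM in C7 and at 7.10 to 8.20 RPKM in the other 4. C7 was the 1 control liver placed in the late clock phase, at an index between those of the early and of the other late livers. Among pre-metastatic livers Gas5 was at 6.08 to 9.30 RPKM in the late and at 5.25 to 9.23 RPKM in the early phase. The part of clock phase in the value of C7 was not tested. Without C7 the log2 difference of Gas5 between pre-metastatic and control liver was 0.07.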

How the results depend on the processing

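Of the counts of called genes, 100 values under alternatives were within 1.5 times the main count and 3 were not. The counts over all 8 lncRNAs include Gm32006 and Gm32872 and are no sign of stability. Those called between tumor and pre-metastatic liver were 3 in the early clock phase alone, with fewer libraries, against 6, those between tumor and control liver 2 with limma on log2(RPKM + 1) against 4, and the listed lncRNAs called between the livers 8 with DESeq2 against 5. Leaving out each mouse gave 5 to 6, 4 to 5, and 4 to 7, and for the listed lncRNAs 41 to 44 between tumor and pre-metastatic liver and 38 to 40 between tumor and control liver. With the mouse as a replicate block, 6 of the 8 and 42 listed lncRNAs were called, and apart from Malat1 and Meg3 none of the 8 changed its call. Of the 6 that exclude Gm32006 and Gm32872, 4 were called against pre-metastatic liver and 2 in the early phase. Single lncRNAs changed sign in 26 values of the comparisons with the tumor, and in 3 between the livers (Meg3 -0.16 without the mice with muscle transcripts, Gas5 0.05 in the early phase and 0.07 without C7). With library totals, limma at a pseudocount of 1, and limma at 0.1, the log2 difference between tumor and pre-metastatic liver became 0.51, 0.48, and 0.57 for Neat1, 0.69, 0.71, and 0.73 for Malat1, and 0.76, 0.12, and 0.42 for Meg3, and between tumor and control liver 0.38, 0.016, and 0.12 for Gm32006, 0.36, 0.31, and 0.31 for Malat1, and 0.92, 0.14, and 0.55 for Meg3. These settings share the scaling by library totals. Meg3 in the latter comparison was 0.032 with upper-quartile scaling, and -0.36 to 0.23 without each mouse, above 0 without C6. H19 between tumor and pre-metastatic liver was -0.55 with DESeq2, -0.19 with the replicate block, -2.55 without the mice with muscle transcripts, -0.53 without M4, -0.41 without M7, and up to 1.01 without each other mouse, and between tumor and control liver -0.20 with DESeq2, where DESeq2 gave no adjusted p. The cause was not tested for the others. Against pre-metastatic liver, Malat1 missed the threshold with upper-quartile scaling (-0.30), no filter (-0.42), in the early phase alone (-0.40), and without the mice with muscle transcripts (-0.31), and Neat1 missed the threshold with upper-quartile scaling (-0.48) and in the early phase alone (-0.48). Limma's pseudocounts shrink differences of low genes: Gm32006 between the livers was 1.51 and 3.82. Gm32872 was not tested in the early phase alone. Depth limits Gm32872, Nespas, and Sox2ot, each at 0 in a whole group.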
